A study of Mus musculus with 10 samples.

Results

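The insulin-like growth factor (IGF) axis of C2C12 cells was followed through 10 genes: the ligands Igf1 and Igf2, the receptors Igf1r and Igf2r, and the binding protein genes Igfbp2, Igfbp3, Igfbp4, Igfbp5, Igfbp6 and Igfbp7. They were taken by gene symbol from 4 deposited expression tables, and all 10 are listed among the 23388 symbols common to these tables. The set was chosen by gene family with the FPKM ratios of these same tables already known, so its values are given as descriptions. C2C12 is a mouse myoblast line that proliferates in rich serum and fuses into myotubes when serum is lowered. Directional mRNA-seq was performed on 10 libraries, and the tables ask how depletion of the ubiquitin ligase Huwe1, or excess of the deubiquitinase USP10, changes gene expression in these cells.

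At day 0, in growth medium with 10% FBS, 1 wildtype library was set against 2 Huwe1 knockdown libraries, each carrying its own hairpin. The same lines were compared after 6 days in differentiation medium with 2% horse serum, again as 1 wildtype library against 2 knockdown libraries. Myotubes kept in differentiation medium for 8 days received Huwe1 hairpins after differentiation had begun, and their single control is labelled as carrying a non-targeting RNA, while the table header names it as wildtype. The labels give these myotubes another pair of hairpins than day 0 and day 6, whereas the study's methods name the pair of the myotubes for both, and the sources used here do not settle which was used. A line with USP10 cDNA under the EF1a promoter gave 1 library at day 6, set against 1 control. Each table holds 1 FPKM value per condition (fragments mapped to a gene, scaled to its transcript length and to the depth of the library), and the 2 knockdown libraries share 1 column. No difference given here therefore has a replicate check, an SD or a p-value. The controls of day 0 and day 6 are labelled wildtype with no hairpin named, so that infection with a hairpin virus and loss of Huwe1 cannot be told apart there.

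The 5 single-library columns of known depth were estimated at 7820000 to 29900000 fragments, the lowest being the control of the USP10 table. That control carries the same library name in its table header as the day 6 control of the Huwe1 table, but its values and depth differ, so the 2 columns were kept apart. The samples hold only 1 wildtype library of day 6, so whether the columns are separate libraries is not known, and they served as the measure of how far deposited control values of day 6 differ. Their log2 ratios over 11459 genes scattered with a robust SD of 0.63, and the 2 columns were 2-fold or more apart for 19.9% of these genes. Huwe1 itself measured 38.3 FPKM in control myoblasts against 15.2 FPKM after knockdown at day 0, 35.1 against 21.9 FPKM at day 6, and 55.4 against 33.0 FPKM at day 8. Usp10 measured 10.3 FPKM without and 38.3 FPKM with overexpression, and in the Huwe1 table of day 6 it measured 13.2 FPKM in the control and 35.4 FPKM after knockdown. At day 0 Usp10 was above all these values, with 68.5 FPKM in the control and 64.2 FPKM after knockdown. Of 9 skeletal muscle markers, 5 reached 1 FPKM at day 0 and all 9 did so in each column of days 6 and 8, while the adipocyte markers Adipoq and Lep were listed at 0 in all 8 columns. Fabp4, of the same 5 adipocyte markers, had 0.287 and 1.33 FPKM at day 0 and 0.348 and 4.68 FPKM at day 6, control before knockdown. It had 0.116 and 0.454 FPKM at day 8, and 0.535 and 3.84 FPKM in the USP10 table.

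IGF ligands are secreted peptides that act through the tyrosine kinase encoded by Igf1r, which feeds the PI3K and Akt pathway. Igf2r encodes a scavenger receptor that carries IGF-II and mannose 6-phosphate proteins to lysosomes. Binding proteins hold the ligands outside the cell and can block or prolong their action, and IGF signalling is known as a driver of myoblast differentiation and of muscle growth.

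The promoters of the members that the results turn on are shown, as given by RefSeq for GRCm38.p6, because the study concerns the TATA-binding protein, which binds such promoters. The RefSeq table held 14 start sites for the 10 genes, 4 of them for Igf2. Each line gives the 100 bases before an annotated start, 5′ to 3′ on the transcribed strand. Capitals mark E-boxes (CANNTG, the core bound by myogenic bHLH factors, which reads alike on both strands) anywhere in the stretch, and hexamers of the TATA type on the transcribed strand in the last 60 bases. The hexamers searched were TATAAA (in 2.87% of 32851 RefSeq promoters), TATATA (in 1.56% of them), TATTTA (in 1.40% of them) and ATAAAA (in 2.998% of them), and no marked motifs overlap. Igf2, Igf2r, Igfbp3 and Igfbp6 are shown for day 6, Igfbp2 and Igfbp5 for day 0, and of the 4 Igf2 start sites the one with a hexamer was chosen.
Igf2, start site 4, chr7:142657497-142657596, minus strand: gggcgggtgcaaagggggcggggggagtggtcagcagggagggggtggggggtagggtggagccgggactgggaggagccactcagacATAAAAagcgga
Igf2r, chr17:12769707-12769806, minus strand: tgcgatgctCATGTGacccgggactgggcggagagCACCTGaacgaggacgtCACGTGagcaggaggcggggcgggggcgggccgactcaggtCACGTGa
Igfbp3, chr11:7213924-7214023, minus strand: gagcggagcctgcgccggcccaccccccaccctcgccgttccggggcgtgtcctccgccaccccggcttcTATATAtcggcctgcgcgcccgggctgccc
Igfbp6, chr15:102144086-102144185, plus strand: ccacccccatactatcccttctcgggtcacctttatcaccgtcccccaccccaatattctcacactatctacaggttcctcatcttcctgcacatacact
Igfbp2, start site 1, chr1:72824380-72824479, plus strand: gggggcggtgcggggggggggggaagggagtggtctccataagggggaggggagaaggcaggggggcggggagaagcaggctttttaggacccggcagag
Igfbp5, chr1:72874866-72874965, minus strand: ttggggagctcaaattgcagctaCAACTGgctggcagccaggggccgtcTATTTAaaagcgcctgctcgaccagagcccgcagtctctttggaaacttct

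One of the 4 TATA-type hexamers stood in the last 60 bases before 4 of the 14 member start sites, those of Igf2 (start site 4), Igfbp3, Igfbp4 and Igfbp5, against 7.05% of 32851 promoters of the same length. They began at position -12 for Igf2, -30 for Igfbp3, -28 for Igfbp4 and -51 for Igfbp5, counted back from the annotated start, which need not be the start used in these cells. An E-box stood within 250 bases before 9 of the 14 start sites and before 66.2% of all promoters. Igf2r held 4 E-boxes, 2 of them CACGTG. These matches describe the letters of the windows only. The hexamers and their window were chosen after these promoters were seen, so nothing is read from the gap to all promoters.

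In the controls, both ligands, Igf2r and Igfbp5 were higher at day 6 than at day 0, and Igfbp2 was lower. Columns of different tables were scaled separately, so levels set across tables are descriptions, and the median gene differed by -0.05 (log2) between these controls. Igf2 (chr7:142650768-142666816, minus strand) measured 0.0719 FPKM in the day 0 control, about 1.60 fragments per kilobase, against 613 FPKM in the day 6 control of the Huwe1 table. The control of the USP10 table, also of day 6, held 249 FPKM of Igf2 and the day 8 control 452 FPKM. Igf2 was thus near the limit of detection in myoblasts and ranked 112th from the top of 10819 genes with at least 1 FPKM in the day 6 control.

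Igf1 (chr10:87858265-87937047, plus strand) measured 0.221 FPKM at day 0, 9.44 and 24.3 FPKM in the 2 day 6 controls and 61.3 FPKM at day 8. Both ligands were under 1 FPKM in myoblasts, and Igf2 exceeded Igf1 in every control from day 6 on, by 64.9 times in the day 6 control of the Huwe1 table, 10.3 times in the control of the USP10 table and 7.37 times at day 8. FPKM is scaled to transcript length, which allows levels of different genes to be set side by side.

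Igf2r (chr17:12682406-12769706, minus strand) measured 5.04 FPKM at day 0, 61.7 and 43.3 FPKM in the day 6 controls and 54.9 FPKM at day 8. Igf1r (chr7:67952257-68233668, plus strand) had 4.16 FPKM at day 0, 4.76 and 11.2 FPKM at day 6 and 6.73 FPKM at day 8. For the signalling receptor the widest gap was the one between day 0 and the control of the USP10 table, and the 2 day 6 controls were themselves 2.34-fold apart. For the clearance receptor all 3 later controls were well above day 0. The file's loci for Igf2 and Igf2r also span the antisense genes Igf2os and Airn. The kit keeps strand, but whether strand was used when fragments were assigned is not given in the sources used here.

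Among the binding proteins, Igfbp2 led at day 0 and Igfbp5 in every later control. Igfbp2 (chr1:72824480-72852474, plus strand) measured 547 FPKM at day 0, 3.20 and 39.97 FPKM in the day 6 controls and 19.9 FPKM at day 8. Igfbp5 (chr1:72858065-72874865, minus strand), which lies 5591 bases beyond the end of Igfbp2, had 156 FPKM at day 0, 1074 and 1298 FPKM at day 6 and 651 FPKM at day 8. Igfbp2 was highest at day 0 and lower in all 3 later controls, and Igfbp5 was lowest at day 0.

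The less abundant Igfbp3 (chr11:7206086-7215498, minus strand), the main carrier of IGFs in blood, was listed at 0 in the day 0 control and had 3.63 and 1.57 FPKM at day 6 and 7.02 FPKM at day 8. Igfbp4 (chr11:99040005-99052655, plus strand), an inhibitor of IGF action, had 2.27 FPKM at day 0, 6.11 and 32.6 FPKM at day 6 and 27.8 FPKM at day 8. Igfbp6 (chr15:102144186-102149512, plus strand), which prefers IGF-II, held the narrowest range of the binding proteins in fold terms, from 41.3 to 69.8 FPKM over the 4 controls. Igfbp7 (chr5:77349240-77408045, minus strand), a distant relative with low affinity for IGFs, had 53.1 FPKM at day 0, 75.2 and 221 FPKM at day 6 and 293 FPKM at day 8. Its locus in the files is longer than the RefSeq gene, so that this value may include another transcript.

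**Figure D1:**
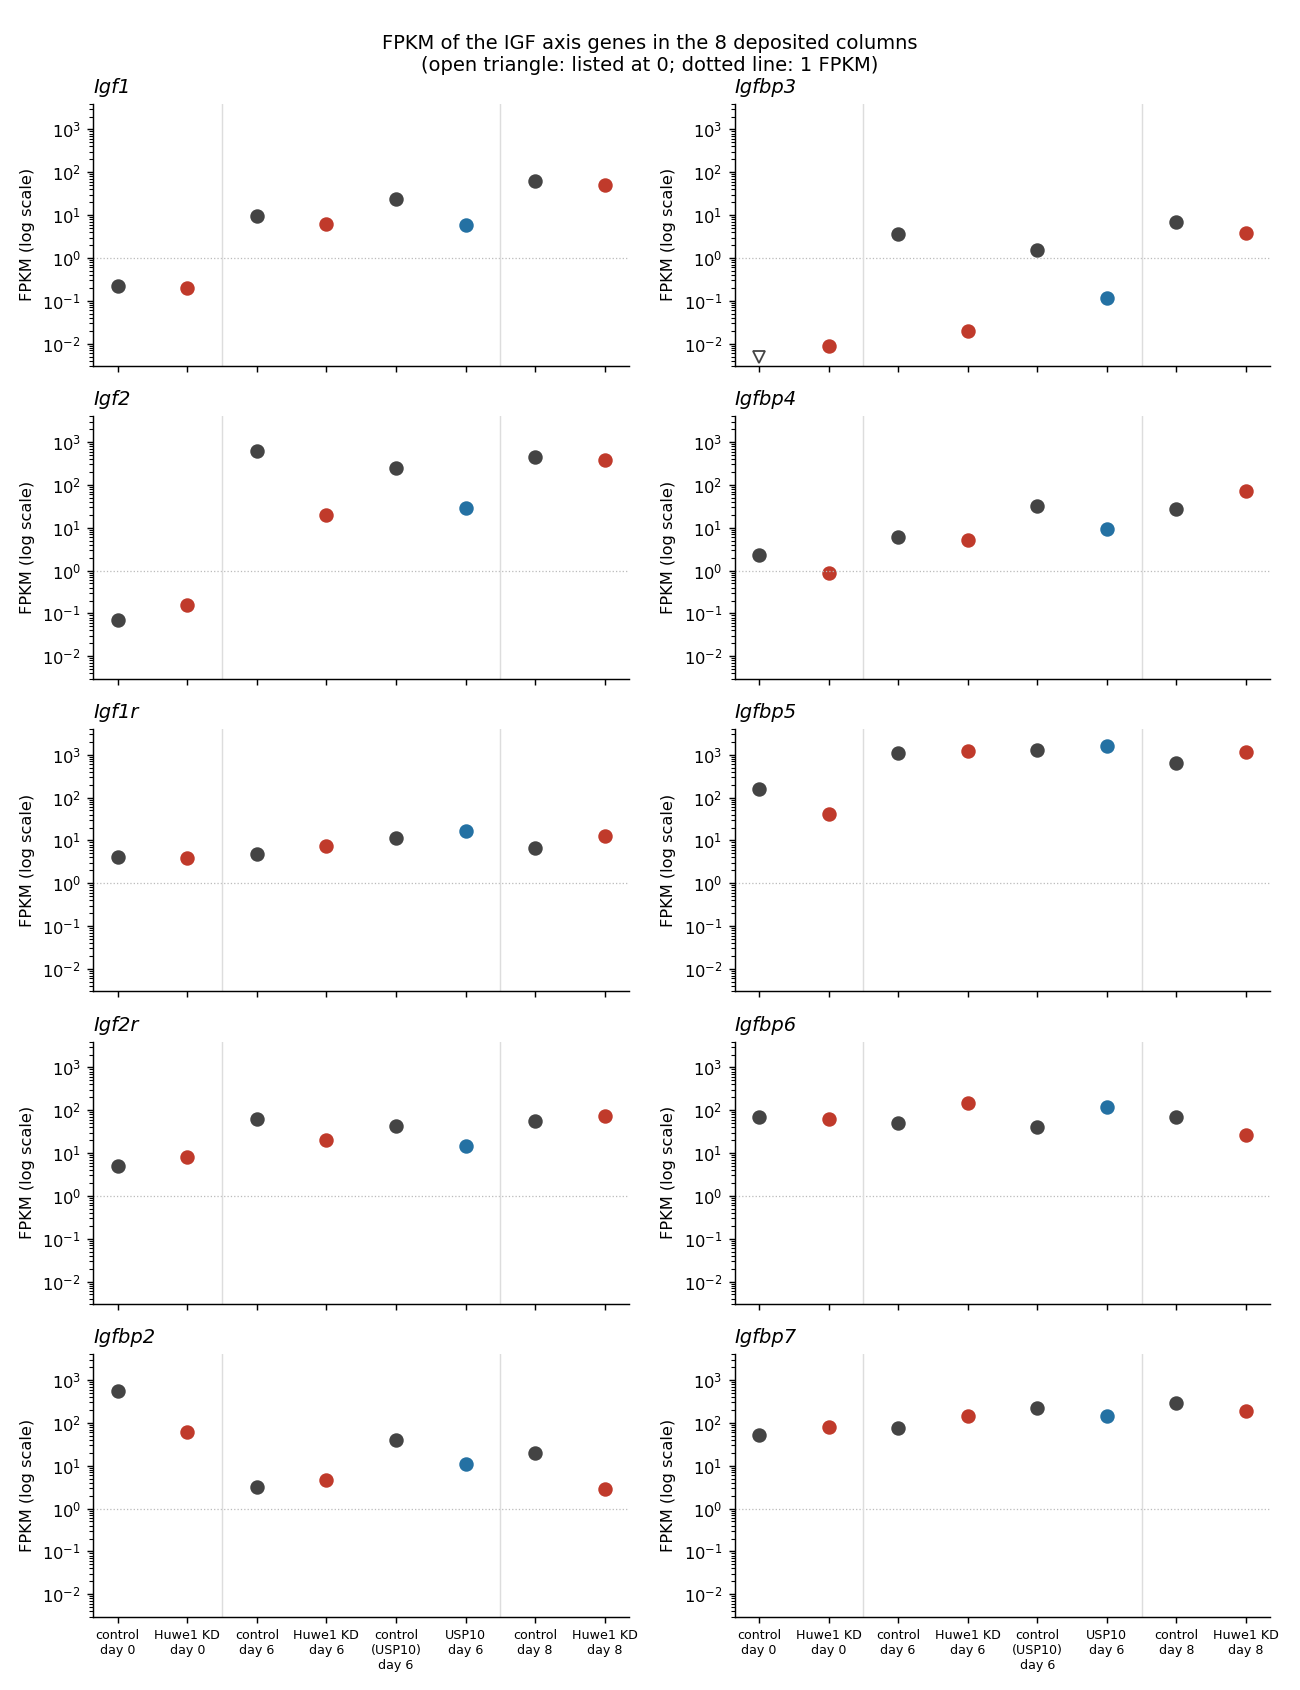
FPKM (log scale) of each of the 10 genes in the 8 deposited columns, ordered by day, with controls in grey, Huwe1 knockdown in red and USP10 overexpression in blue. Each point is 1 deposited value, the open triangle marks Igfbp3 listed at 0, and in the controls of day 0 and day 6 the points of Igf2 stand at 0.0719 and 613 FPKM and those of Igfbp2 at 547 and 3.20 FPKM.

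The day 6 control of the Huwe1 table was compared with the day 0 control over 11653 genes reaching 1 FPKM in one or both columns, of which 44.8% were 2-fold or more apart. In this comparison 6 members were at least 2-fold higher (Igf1, Igf2, Igf2r, Igfbp3, Igfbp4 and Igfbp5), Igfbp3 against a day 0 value listed at 0, beside 21.5% of all genes. Only Igfbp2 was at least 2-fold lower in this comparison, beside 23.2% of all genes. The log2 ratio, taken with 0.01 added to each FPKM value, was 2.79 for Igfbp5, 3.61 for Igf2r and -7.41 for Igfbp2. Between the day 6 control of the Huwe1 table and the day 8 control, Igf1 (2.70), Igfbp2 (2.63), Igfbp4 (2.18) and Igfbp7 (1.96) were at least 2-fold higher and no member was 2-fold lower, beside 13.8% and 5.81% of 11525 genes, or 19.6% in both directions together.

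The 4 genes that were higher at day 8 are also the 4 that differed most between the 2 day 6 controls. Set against the control of the USP10 table, Igfbp2 was lower at day 8, with a log2 ratio of -1.01, and Igfbp4 was near its level, at -0.23. The day 6 to day 8 difference was smaller than that between the 2 day 6 controls for Igfbp2 (6.19-fold against 12.5-fold) and Igfbp4 (4.54-fold against 5.32-fold), and larger for Igf1 (6.48-fold against 2.57-fold) and Igfbp7 (3.90-fold against 2.94-fold).

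In the Huwe1 knockdown, 6 of 9 members were at least 2-fold higher at day 6 than at day 0, beside 19.1% of 11594 genes, and Igfbp2 was lower, beside 16.9%, the 2 directions together holding 35.9%. The 6 were Igf1 (4.94), Igf2 (6.94), Igf2r (1.31), Igfbp4 (2.57), Igfbp5 (4.93) and Igfbp6 (1.28). Igf2 measured 0.154 FPKM at day 0 and 20.2 FPKM at day 6, so that the ligand was present at day 6 at a level below both day 6 controls.

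In day 0 myoblasts, 3 binding protein genes were at least 2-fold lower in the Huwe1 knockdown and no member was 2-fold higher. Igfbp2 measured 547 FPKM in the control against 60.3 FPKM in the pooled knockdown (log2 ratio -3.18). Igfbp5 had 156 and 40.9 FPKM (-1.93). Igfbp4 had 2.27 and 0.880 FPKM (-1.36, or -0.80 with 1 FPKM added to each value). At least 2-fold lower genes made up 1.69% of the 10874 genes compared and higher ones 1.9%, together 3.6%, and Igfbp2, Igfbp5 and Igfbp4 were at the 0.156, 0.276 and 0.727 percentile of all log2 ratios.

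The other members differed less at day 0. Igf2r measured 5.04 FPKM in the control against 7.99 FPKM after knockdown (0.66), and Igfbp7 had 53.1 and 78.8 FPKM (0.57). Igfbp6 (-0.17) and Igf1r (-0.13) differed by at most 1.13-fold. Igf1, Igf2 and Igfbp3 were under 1 FPKM in both columns and entered no count. With 3 of 7 genes past 2-fold, the median log2 ratio of the members was -0.17, against 0.00228 for all genes.

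Summed over the binding proteins, the day 0 control held 828 FPKM and the knockdown 243 FPKM. Igfbp2 made up 66.1% of the control sum and 24.9% of the knockdown sum. The share of Igfbp7 was 6.41% in the control and 32.5% in the knockdown, and that of Igfbp6 was 8.41% and 25.5%. Igfbp6 itself was 1.13-fold lower in the knockdown, and Igfbp7 1.49-fold higher. The skeletal muscle marker sum was 387 FPKM in the control and 201 FPKM after knockdown at day 0. Most of it was Des, with 345 and 173 FPKM, and 1 of 5 measured markers was at least 2-fold lower and 0 higher. The fibroblast and mesenchymal sum was 223 and 161 FPKM, mostly Col3a1 with 170 and 106 FPKM, and 1 of 6 measured markers was at least 2-fold lower and 1 higher. The part of these markers in the values above was not tested.

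At day 6 of differentiation, Huwe1 knockdown and USP10 overexpression each gave 4 members that passed 2-fold in 1 direction against both day 6 control columns. Of 11448 genes, 15.6% did so in the knockdown (6.26% lower and 9.29% higher), and of 11265 genes 15% did so in the USP10 line (7.08% lower and 7.95% higher). The 4 were the same in both treatments, which share these controls. Igf2 had 20.2 FPKM in the Huwe1 knockdown and 29.3 FPKM in the USP10 line, against 613 FPKM in the control of the Huwe1 table and 249 FPKM in that of the USP10 table. Both treated columns were below both controls by at least 8.50-fold. The log2 ratio of Igf2 against the control of its own table was -4.92 in the knockdown and -3.09 in the USP10 line.

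Igf2r had 19.8 FPKM in the knockdown and 14.3 FPKM in the USP10 line, against 61.7 and 43.3 FPKM in the respective controls (log2 ratios -1.63 and -1.60). Igfbp3 had 0.0199 and 0.118 FPKM, against 3.63 and 1.57 FPKM. The value of 1.57 FPKM corresponds to about 12.3 fragments per kilobase in that shallow library, and 0.118 FPKM to about 3.28 in the USP10 library, so the size of this difference is poorly measured. With 1 FPKM added to each value, the log2 ratio of Igfbp3 was -2.18 in the knockdown and -1.20 in the USP10 line.

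Igfbp6 went the other way. It had 150 FPKM in the Huwe1 knockdown and 117.2 FPKM in the USP10 line, against 50.3 and 41.3 FPKM in the controls (log2 ratios 1.58 and 1.51), with both treated columns above both controls. Igfbp5, the most abundant binding protein, had 1251 and 1591 FPKM against 1074 and 1298 FPKM (0.22 and 0.29), within 1.23-fold of its own control in both treatments.

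In all, 3 members were at least 2-fold lower and 1 higher in the knockdown at day 6, beside 13.4% and 17.6% of 11695 genes, or 31.1% in both directions together, a share near that of the members. In the USP10 line, 6 members were lower and 1 higher, beside 10% and 9.7% of 11482 genes. The 3 further members that were lower in the USP10 line were Igf1, from 24.3 to 6.00 FPKM (-2.02), Igfbp2, from 39.97 to 10.7 FPKM (-1.89), and Igfbp4, from 32.6 to 9.24 FPKM (-1.82).

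These 3 further calls rest on the control of the USP10 table. Against the day 6 control of the Huwe1 table, Igfbp2 was higher in the USP10 line (1.75) and so was Igfbp4 (0.59), while Igf1 was -0.65. The 2 control columns differed by 12.5-fold for Igfbp2, 5.32-fold for Igfbp4 and 2.57-fold for Igf1. In the Huwe1 knockdown the same 3 genes were under 2-fold from their own control, with 6.33 FPKM for Igf1 (-0.58), 4.54 FPKM for Igfbp2 (0.50) and 5.29 FPKM for Igfbp4 (-0.21). Against the control of the USP10 table their log2 ratios were -1.94 for Igf1, -3.14 for Igfbp2 and -2.62 for Igfbp4. Igf1r and Igfbp7 passed 2-fold in neither treatment against their own control. Igf1r had 7.46 FPKM in the knockdown and 17.0 FPKM in the USP10 line, against 4.76 and 11.2 FPKM. With the other day 6 control, the log2 ratio of Igf1r was -0.58 in the knockdown and 1.83, past 2-fold, in the USP10 line. Igfbp7 had 149 FPKM in the knockdown (0.99, just under 2-fold) and 144 FPKM in the USP10 line (-0.62), which lie between its controls at 75.2 and 221 FPKM.

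**Figure D2:**
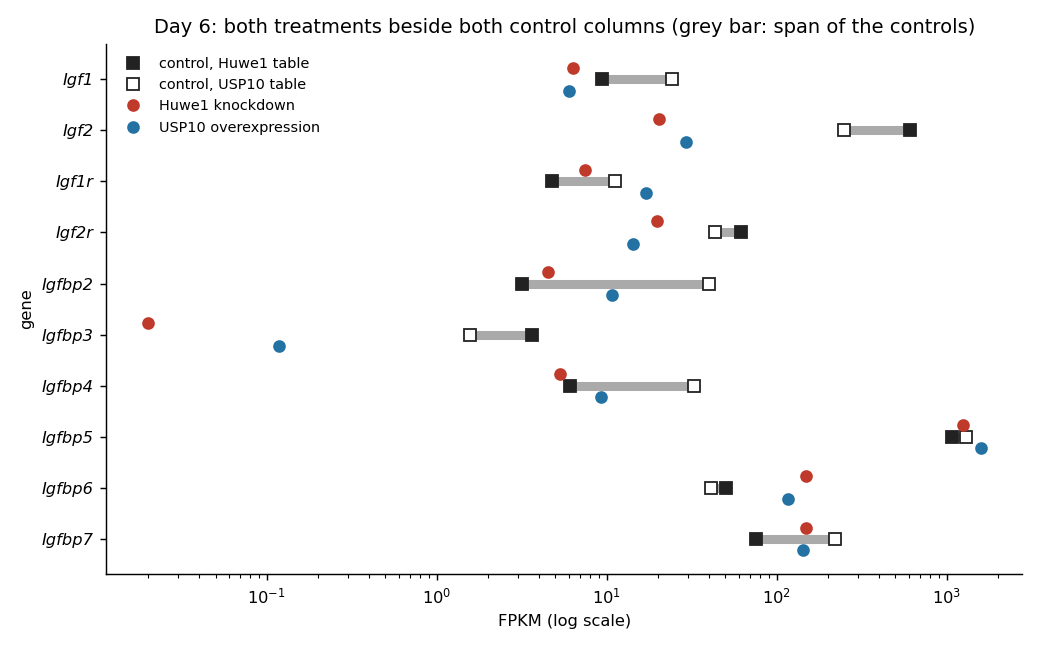
FPKM (log scale) at day 6 for each gene in the Huwe1 knockdown (red), the USP10 line (blue) and both control columns (squares), with a grey bar spanning the controls. For Igf1, Igf2, Igf2r and Igfbp3 both treated points lie left of the bar, for Igfbp6 both lie right of it, and for Igfbp2 and Igfbp7 both lie on it. The Igf1 points are under 2-fold from the nearer control.

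Other cell markers moved with these day 6 columns. The summed FPKM of 9 skeletal muscle markers was 12786 in the control and 2788 in the Huwe1 knockdown, with 7 of 9 at least 2-fold lower and 1 higher, and 6089 in the control and 3267 in the USP10 line, with 5 of 9 lower and 1 higher. The marker that was higher was Myf5, an early myogenic factor, with 3.51 and 18.5 FPKM in the Huwe1 table and 4.79 and 20.2 FPKM in the USP10 table. The sum of 8 fibroblast and mesenchymal markers was 139 and 4697 FPKM in the Huwe1 table (7 of 7 measured markers at least 2-fold higher) and 600 and 4214 FPKM in the USP10 table (4 of 7 higher), with 6 of 8 markers at 1 FPKM or more in each control and 7 of 8 in each treated column. Most of it was Dcn, with 2987 FPKM in the knockdown and 3037 FPKM in the USP10 line, while Thy1 was listed at 0 in both. In all 8 columns, the sum of adipocyte markers was at most 4.68 FPKM, that of endothelial markers 13.6 FPKM and that of macrophage markers 4.65 FPKM. The adipocyte maximum was Fabp4 in the day 6 knockdown, against 0.348 FPKM in its control. The part of these markers in the IGF axis values was not tested, and in bulk RNA fewer cells of a type and less RNA per cell cannot be told apart.

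In day 8 myotubes depleted of Huwe1 after differentiation had begun, the ligands differed little. Igf2 measured 452 FPKM in the control against 388 FPKM after knockdown (log2 ratio -0.22), and Igf1 had 61.3 and 49.9 FPKM (-0.30). Igf2r had 54.9 and 74.5 FPKM (0.44) and Igf1r 6.73 and 12.9 FPKM (0.94, just under 2-fold).

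The differences past 2-fold at day 8 were among binding proteins, which make up 6 of the 10 members. Igfbp2 measured 19.9 FPKM in the control against 2.87 FPKM after knockdown (-2.79), and Igfbp6 had 69.8 and 26.0 FPKM (-1.42). Igfbp4 was higher, with 27.8 and 73.0 FPKM (1.39). In all, 2 members were lower and 1 higher, beside 10% and 7.89% of 11755 genes, or 17.9% in both directions together, so the counts of the members lie near the background.

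Of the remaining binding proteins at day 8, Igfbp5 measured 651 FPKM in the control against 1133 FPKM after knockdown (0.80), Igfbp3 7.02 and 3.80 FPKM (-0.88), and Igfbp7 293 and 186 FPKM (-0.66). None of them passed 2-fold. The muscle marker sum in this table was 10730 FPKM in the control against 2618 FPKM in the knockdown, with 7 of 9 at least 2-fold lower. The mesenchymal sum was 703 and 889 FPKM, with 1 of 6 measured markers at least 2-fold lower and 2 higher. Most of it was Col3a1, with 411 and 710 FPKM, and Postn, with 264 and 153 FPKM. Dcn was higher, with 4.19 and 8.75 FPKM, and Ly6a lower, with 13.9 and 4.28 FPKM. The part of these markers was not tested here either.

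**Figure D3:**
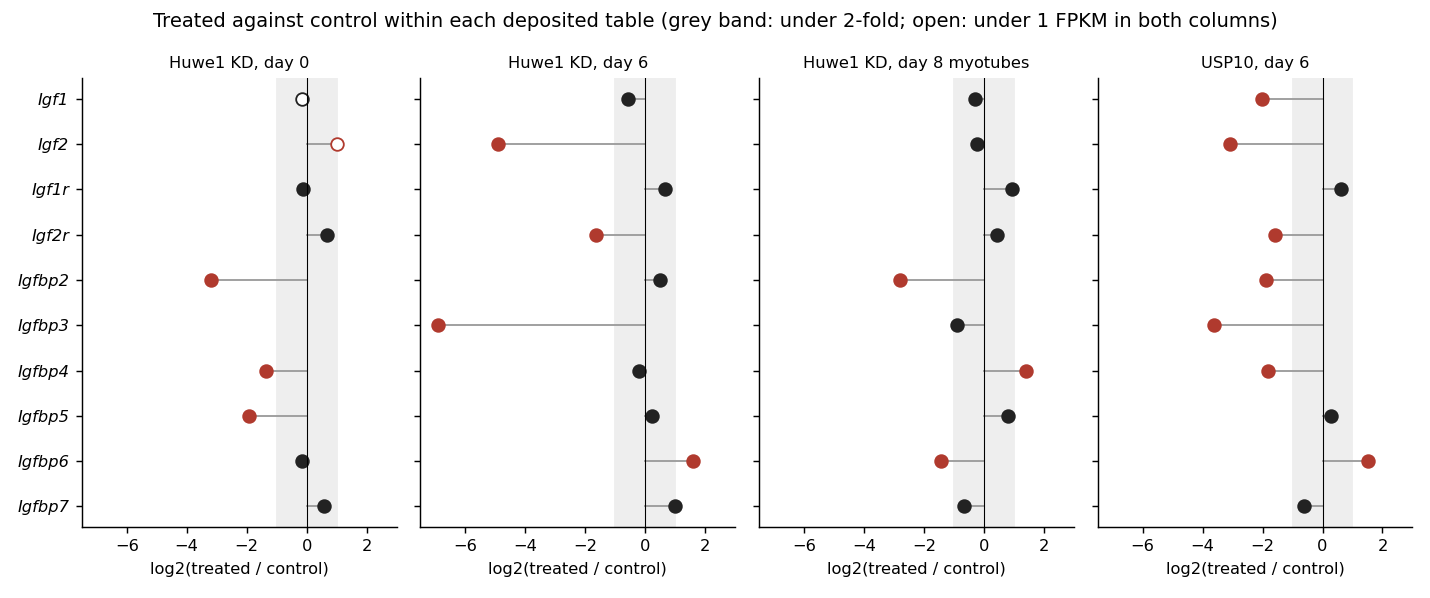
The log2 ratio of treated to control (x axis) of each gene in the 4 tables, with red points past 2-fold and a grey band under 2-fold. Open points had under 1 FPKM in both columns, Igfbp3 has no day 0 point because its control is listed at 0, and Igfbp2 is 2-fold lower in every panel except Huwe1 knockdown at day 6 (0.50), with values of 1.75 in the USP10 line and -3.14 in the day 6 knockdown when the other day 6 control is used.

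Across the 4 tables, Igfbp2 was at least 2-fold lower in 3, of which the USP10 call turns to 1.75 with the other day 6 control. Against the control of the same table, Igf1r and Igfbp7 passed 2-fold in none, while Igf1r in the USP10 line was 1.83 with the other day 6 control. Igf2, Igf2r and Igfbp3 were at least 2-fold lower in the 2 day 6 tables and in no other. Igf2 and Igfbp3 were under 1 FPKM in both columns of day 0, so no call was possible there, and Igfbp3 was -0.88 at day 8. Igfbp4 and Igfbp6 were the members called in both directions.

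The summed FPKM of Igf1 and Igf2 was 0.293 in the day 0 control and 0.351 in the day 0 knockdown. It was 622 FPKM in the day 6 control against 26.5 FPKM in the knockdown, and 274 FPKM in the control against 35.3 FPKM in the USP10 line. At day 8 it was 513 and 438 FPKM.

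Binding protein transcripts exceeded ligand transcripts in all 8 columns. At day 6, their summed FPKM was 1.95 times that of the ligands in the control and 58.8 times in the Huwe1 knockdown, and 5.97 times in the control and 53.0 times in the USP10 line. At day 8 the ratios were 2.08 in the control and 3.25 in the knockdown. Igfbp5 made up 60.9% to 88.6% of the binding protein sum in all columns of days 6 and 8, and 18.8% and 16.8% in the control and knockdown of day 0. The ratio of Igf2r to Igf1r was 12.9 in the day 6 control and 2.66 in the knockdown, and 3.88 in the control and 0.840 in the USP10 line.

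**Figure D4:**
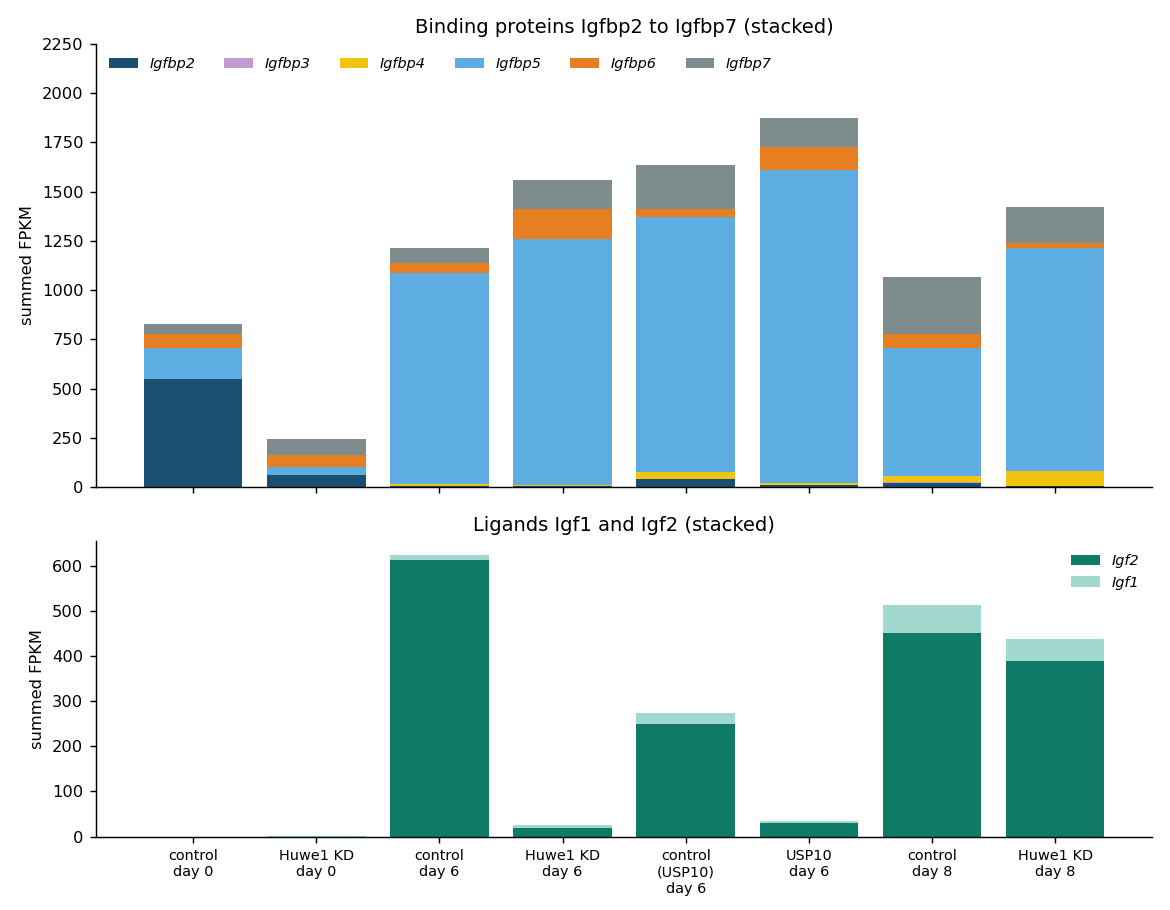
Summed FPKM of the 6 binding protein genes (upper panel) and of the 2 ligands (lower panel), stacked by gene, in the 8 columns. Igfbp2 (dark blue) fills most of the day 0 control bar of 828 FPKM, Igfbp5 (light blue) fills most of every later bar, and the ligand bars of both day 6 treatments, at 26.5 and 35.3 FPKM, are short beside those of their controls.

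The wider pathway was read from 6 lists holding 78 genes, of which 58 to 64 reached 1 FPKM in one or both columns of a table. At day 0, 2 were at least 2-fold lower and 1 higher in the Huwe1 knockdown (5.17% of 58 genes, beside 3.6% of all genes). At day 6, 14 were lower and 10 higher in the knockdown (38.1% of 63 genes, beside 31.1% of all genes in either direction) and 12 were lower and 1 higher in the USP10 line (20.3% of 64 genes, beside 19.7%). By direction, 22.2% were lower and 15.9% higher in the knockdown, and 18.8% lower and 1.56% higher in the USP10 line, where 10% and 9.7% of all genes were lower and higher. At day 8, 7 were lower and 8 higher (23.4% of 64 genes, beside 17.9%). With lists of this size and no replicates, nothing is read from the gaps between these shares.

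H19, a maternally expressed RNA of the same imprinted domain whose gene ends 72622 bases from Igf2, was lower in every treated column. It measured 32.9 FPKM in the control against 13.5 FPKM after knockdown at day 0, 2957 and 499 FPKM at day 6, and 3334 and 1022 FPKM at day 8. In the USP10 table it had 2764 and 367 FPKM. At day 8, H19 was thus 3.26-fold lower while Igf2 was 1.16-fold lower. Insr, the insulin receptor, had 12.9 and 5.87 FPKM in the day 6 knockdown table (-1.14) and 15.9 and 7.26 FPKM in the USP10 table (-1.13, or -0.83 with the other day 6 control). Ins2, the insulin gene beside Igf2, measured 0.739 FPKM in the day 6 control against 11.1 FPKM after knockdown, but was listed at 0 in the control of the USP10 table and had 0.266 FPKM in the USP10 line.

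Among 12 genes for proteases that cut binding proteins and their inhibitors, 8 were measured at day 6, and 4 were at least 2-fold higher and 2 lower in the Huwe1 knockdown, beside 17.6% and 13.4% of all genes. Plau, which encodes urokinase, measured 4.44 and 66.6 FPKM (3.90). Plat, which encodes tissue plasminogen activator, had 4.31 and 41.7 FPKM (3.27). Both were also at least 2-fold higher against the other day 6 control (1.99 and 1.82). Htra1, a secreted serine protease, had 20.3 and 181 FPKM (3.16), but 244 FPKM in the other day 6 control, against which its ratio was -0.43. In the USP10 table none of these genes was 2-fold higher and 3 were lower, beside 9.7% and 10% of all genes. Among the lower ones was Pappa2, a protease of Igfbp5, with 12.7 and 2.15 FPKM (-2.56), but 0.356 FPKM in the other day 6 control, which turns its ratio to 2.56. Plau (16.7 and 33.2 FPKM), Adamts1 (31.0 and 59.6 FPKM) and Plat (11.8 and 20.5 FPKM) were higher in the USP10 line by less than 2-fold. The other day 6 control held 4.44 FPKM of Plau and 4.31 FPKM of Plat, so both were past 2-fold against it. In day 8 myotubes Adamts1 was higher, with 22.8 and 54.8 FPKM (1.27), and Plau lower, with 24.2 and 11.8 FPKM (-1.04).

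Igf2bp2, an RNA-binding protein that binds Igf2 mRNA, had 6.80 FPKM in the day 6 control against 17.6 FPKM in the knockdown (1.37, or 0.34 with the other day 6 control). Of 14 measured genes acting next to the receptor, 1 was lower and 1 higher in the day 6 knockdown, beside 13.4% and 17.6% of all genes. Sh2b1, an adaptor, had 42.0 and 14.2 FPKM there (-1.56, or -0.47 with the other day 6 control). In day 8 myotubes 3 of 14 were higher in the knockdown, beside 7.89% of all genes, among them 2 inhibitors of receptor signalling. Grb14 had 3.46 and 17.6 FPKM (2.35), and Socs3 had 9.89 and 44.1 FPKM (2.15). The remaining gene was Irs2, insulin receptor substrate 2, with 0.892 and 4.24 FPKM.

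Of 26 PI3K, Akt, mTOR and FoxO genes, all were expressed in each table, and none was 2-fold apart at day 0. At day 6, 5 were lower and 2 higher in the knockdown, beside 13.4% and 17.6% of all genes. Deptor, an mTOR inhibitor, had 162 and 24.6 FPKM (-2.72). Akt2 had 154 and 52.8 FPKM (-1.55) and Rptor, the defining subunit of mTORC1, 34.6 and 12.1 FPKM (-1.51), while Pik3r2, a PI3K regulatory subunit, had 23.7 and 56.5 FPKM (1.25). With the other day 6 control, Deptor was still at least 2-fold lower (-1.95), while Akt2 (-0.76), Rptor (-0.49) and Pik3r2 (0.77) were under 2-fold. In the USP10 line only Deptor and Eif4ebp2, a translation repressor, passed 2-fold against the control of the same table. Deptor went from 95.0 to 17.9 FPKM (-2.41) and Eif4ebp2 from 7.46 to 15.5 FPKM (1.05). Both also passed 2-fold with the other day 6 control (-3.18 and 1.01). That control held 154 FPKM of Akt2 and 34.6 FPKM of Rptor, against 47.6 and 10.8 FPKM in the USP10 line. Akt2 and Rptor were thus more than 2-fold lower against it, as were further genes of this list. One gene of this list was lower and none higher at day 8.

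Of 10 genes that FoxO factors activate in muscle, 4 were lower and 0 higher in the day 6 knockdown, beside 13.4% and 17.6% of all genes. In the USP10 line 3 were lower and 0 higher, beside 10% and 9.7%, and at day 8, 1 was lower and 3 higher, beside 10% and 7.89%. Trim63, a muscle ubiquitin ligase, had 55.7 and 6.78 FPKM in the day 6 knockdown table (-3.04), 36.3 and 5.69 FPKM in the USP10 table (-2.67) and 56.9 and 23.7 FPKM at day 8 (-1.27). Sesn3, an inhibitor of mTORC1, had 10.5 and 4.61 FPKM (-1.18) and 10.7 and 2.07 FPKM (-2.37) at day 6 in the knockdown and USP10 tables. Map1lc3a, an autophagosome protein, had 249 and 124 FPKM (-1.003) in the knockdown table, or -0.33 with the other day 6 control. At day 8, Fbxo32, the other muscle ligase, was higher, with 11.5 and 30.9 FPKM (1.42), as was Gabarapl1, an autophagosome protein, with 25.8 and 55.8 FPKM (1.11).

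The genes with the pattern most like each member were found by Pearson's correlation of log2(FPKM + 0.01) over the 8 columns, among 8194 genes that peaked at 10 FPKM or more and reached 1 FPKM in 4 or more columns (8195 for Igfbp3, which is not among them). The 8 points share tables, controls and a strong day 0 to day 6 step, so that high values are common, and r is a description. Igf2 was closest to Myog, the myogenic regulator myogenin (r = 0.993), and to Abra, an actin-binding activator of SRF signalling (r = 0.992). Myog had 0.164, 0.153, 619, 27.1, 391.8, 148, 305 and 28.8 FPKM in the columns of day 0, day 6, day 8 and the USP10 table, control before treated. The pair parted at day 8, where Myog had 148 FPKM in the knockdown against 391.8 FPKM in the control and Igf2 had 388 against 452 FPKM.

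Igf1 was closest to Islr (r = 0.999) and Hdac4 (0.995), Igf2r to Lrrn1 (0.996) and Fbxo38 (0.995), and Igfbp3 to Phldb2 (0.987) and Pax7 (0.985), the satellite cell factor. Pax7 was listed at 0 in the day 0 control, with 0.00952 FPKM after knockdown, and had 7.54 and 0.0438 FPKM in the control and knockdown at day 6, 24.7 and 36.7 FPKM at day 8, and 8.27 and 0.0808 FPKM in the USP10 table. Igfbp5 was closest to Ypel3 (0.988) and Rnf166 (0.978), Igfbp6 to Alox5ap (0.981) and Gm7361 (0.966), and Igfbp4 to H6pd (0.989) and Ccdc80 (0.984). Igf1r was closest to Bod1l (0.967) and Gps2 (0.961), Igfbp2 to Mlf2 (0.951) and Tead2 (0.944), and Igfbp7 to Enpp1 (0.934) and Col8a1 (0.933).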

How the data were processed

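Per the study's methods, the authors aligned the reads with Tophat. Their processing notes name Bowtie2, Cuffdiff and build mm10. Versions and the annotation are not given in the sources used here. The deposited values used are FPKM, 1 per condition and table, with the 2 knockdown libraries pooled. Each table was scaled on its own. The deposited fold changes, p-values and significance calls of the authors were not used, and 0 columns of per-sample values were left out.

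Log2 ratios were computed with 0.01 added to each FPKM value over genes reaching 1 FPKM in one or both columns, and genes at least 2-fold apart were counted. With 1 value per condition no test was made. Depth was estimated from what 1 fragment is worth in genes with 1 RefSeq transcript of at least 1500 bases and covers counting error only. The members and lists were chosen with earlier results of these data known. All 10 members were named, with the pathway genes of at least 10 FPKM and 2-fold change in a treatment table, at most 3 per list and direction, and the 2 genes most alike in pattern. A result that this rule names is not reported here. The hexamers and their window were chosen after the promoters were seen. Dcn, Thy1, Myf5, Fabp4, Cdh5, Des, Col3a1, Postn, Ly6a and Irs2 were named after their values were seen. So were Plau, Plat, Adamts1, Htra1, Stc2, Adam12, Akt2 and Rptor in the USP10 table. The ratio and depth steps were tested on simulated data. Alternatives were pseudocounts of 0.1 and 1, no minimum, 5 FPKM, 1 FPKM in both columns, centring on the median gene, 1.5-fold and 4-fold limits and the other day 6 control, whose use for pathway genes and for counts against both controls was chosen after seeing the data. Calculations ran in Python 3.11.15 with pandas 2.3.3 on numpy 2.4.6, and plots in matplotlib 3.10.9.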

Additional observations from a re-analysis of the deposited data

Results flagged for a closer look

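Igfbp6 and Igfbp4, both binding protein genes, passed 2-fold in opposite directions under Huwe1 knockdown at different stages. Igfbp6 was 2.98-fold higher at day 6 and 2.68-fold lower in day 8 myotubes, a difference of 2.999 on the log2 scale. Igfbp4 was 2.63-fold higher in day 8 myotubes and 2.56-fold lower at day 0, a difference of 2.75 on the log2 scale. Neither difference was tested, since each stage has 1 value per condition, and the control and the time of infection differ between the stages, as do the hairpins per the labels but not per the study's methods. The Igfbp4 value of day 0 is low, at 2.27 and 0.880 FPKM. With 1 FPKM added to each value its log2 ratio at day 0 was -0.80, under 2-fold.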

How the results depend on the processing

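Each condition has 1 value. No paired analysis was possible because the tables hold no replicate values, and for the same reason no library could be left out. Of 415 recomputed member ratios, 378 stayed within the robust SD between day 6 controls, 33 moved by more and 4, all past 2-fold, turned direction. The settings that change only the minimum select genes and leave each ratio as it was, so those ratios could not move. With the other day 6 control, 12 ratios stayed within that SD, 23 moved by more and 4 turned direction. Counted by sign alone, 12 ratios changed sign with that control, 8 of them from under 2-fold. The 4 were Igfbp2 (1.75) and Igfbp4 (0.59) in the USP10 line, and Igfbp2 (-1.01) and Igfbp4 (-0.23) between day 6 and day 8 controls. Among the pathway calls past 2-fold that were named by rule, Htra1 in the knockdown (-0.43) and Pappa2 in the USP10 line (2.56) turned with that control. The cause was not tested.

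With the other day 6 control, 6 members were lower in the Huwe1 knockdown at day 6, 3 were lower and 3 higher in the USP10 line, and 1 was lower and 2 higher at day 8 against day 6. A minimum of 1 FPKM in both columns left 3 members higher at day 6 than at day 0 in the controls and 3 in the knockdown, since Igf1 and Igf2, with Igfbp3 in the controls and Igfbp4 in the knockdown, then drop out. In the day 0 knockdown, 2 members instead of 3 were lower with 1 FPKM added, with a minimum of 5 FPKM or with 1 FPKM in both columns. With no minimum, 1 member was higher in the day 0 knockdown. A 1.5-fold limit gave 1 higher in the day 0 knockdown, 3 higher at day 6, 4 lower and 3 higher at day 8, 2 higher in the USP10 line and 1 lower between day 6 and day 8 controls. A 4-fold limit gave 1 lower at day 0, 0 higher at day 6, 1 lower and 0 higher at day 8, and 3 lower and 0 higher in the USP10 line. In the shallowest library, the control of the USP10 table, 1 FPKM stands for about 7.82 fragments per kilobase, so low values there are poorly measured.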
